A study of Drosophila melanogaster with 6 samples.

Results

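Transcripts of the hypoxia response were compared between methamphetamine (METH)-fed and control *Drosophila* males. The genes were chosen by name: *sima*, *tgo*, *Hph* (also called *fatiga*), *Vhl*, *bnl*, *btl*, *scyl*, *chrb* and *Ldh* (also called *ImpL3*). Every probe set, a group of short oligonucleotides that together interrogate a transcript, was taken where the platform annotation pairs it with one of these genes alone. Probe sets paired with several genes were not taken. Of the 9 genes, 7 were paired with 10 probe sets, out of 11982 genes with a probe set of their own and 18769 probe sets tested. The annotation used pairs no probe set with *chrb* alone or *Ldh* alone, and these genes were not analysed here. RNA came from whole bodies of virgin w1118 males, 5 days old when placed on the diets. METH flies fed for 24 h on the standard diet with 0.6% (w/v) METH, and control flies fed for 24 h on that diet without METH. The labels call both a blue diet. Each diet had 3 arrays, and each array carried RNA from 20 pooled flies of its own biological replicate.

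When oxygen is scarce, animal cells change their transcription through the hypoxia-inducible factor, a pair of proteins that in *Drosophila* are Similar (Sima) and Tango (Tgo). With ample oxygen, the prolyl hydroxylase Hph marks Sima, the ubiquitin ligase subunit Vhl recognizes the mark, and Sima is degraded, so that much of this control acts on the protein rather than on the *sima* transcript. Among the genes turned on in low oxygen are *Hph* itself, the growth factor and receptor genes *bnl* and *btl* that guide the growth of the air-carrying tracheae, the TOR inhibitors *scyl* and *chrb*, and *Ldh*, which converts pyruvate to lactate.

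None of the 7 genes measured passed the test for a difference between METH and control males, and *chrb* and *Ldh* were not tested here. The authors reported more lactate dehydrogenase mRNA in METH-treated flies, a result that was not examined here. Signals are given as a percentage of the signal of the array's own actin control probe set (AFFX-Dros-ACTIN_M_r), and differences are METH minus control on the log2 scale with their standard errors (SE). Tests were made with limma, with Benjamini-Hochberg adjustment of the p values over all 18769 probe sets. At an adjusted p under 0.05, METH was higher for 0 and lower for 0 of the 10 probe sets, against 0.842% and 0.416% of all probe sets. At an unadjusted p under 0.05 in the same test, METH was higher for 1 and lower for 0 of the 10, where the whole array had 9.38% higher and 2.12% lower. All METH arrays lay above all control arrays for 1 of the 10 probe sets and below them for 0, against 15.7% and 2.58% of all probe sets. By the methods' t-test (p at most 0.005 and at least 1.5-fold), METH was higher for 0 and lower for 0 of the 10, with 0.922% and 0.256% for the array as a whole. With the looser cutoff that the authors' results text gives (p below 0.008 and more than 1.5-fold) the counts were again 0 and 0, with 1.25% and 0.330%.

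The actin reference gives all differences a common offset. Its signal was 831, 868 and 700 in METH arrays, against 1218, 922 and 984 in control arrays, so that these groups did not overlap. With this reference the median difference over all probe sets was 0.24, and with the signals as deposited it was -0.13. Of the probe sets past the threshold, 158 were higher and 78 lower in METH with the actin reference, against 114 higher and 381 lower as deposited. The median over the 10 probe sets of the group was 0.07, which is 0.17 below that of all probe sets, and 3 of the 10 lay above it. The medians over all probe sets with the actin reference (0.24) and as deposited (-0.13) differ in sign. The direction of a small difference can thus depend on the scaling. So can the count at an unadjusted p under 0.05 in limma, which was 3 of the 10 as deposited. There Hph 1638797_a_at and bnl 1634109_a_at were lower in METH and bnl 1637225_at was higher. With quantile normalization it was 2, with Hph 1638797_a_at lower and bnl 1637225_at higher. The shares of all probe sets at this cutoff are not given for these scalings.

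**Figure D1:**
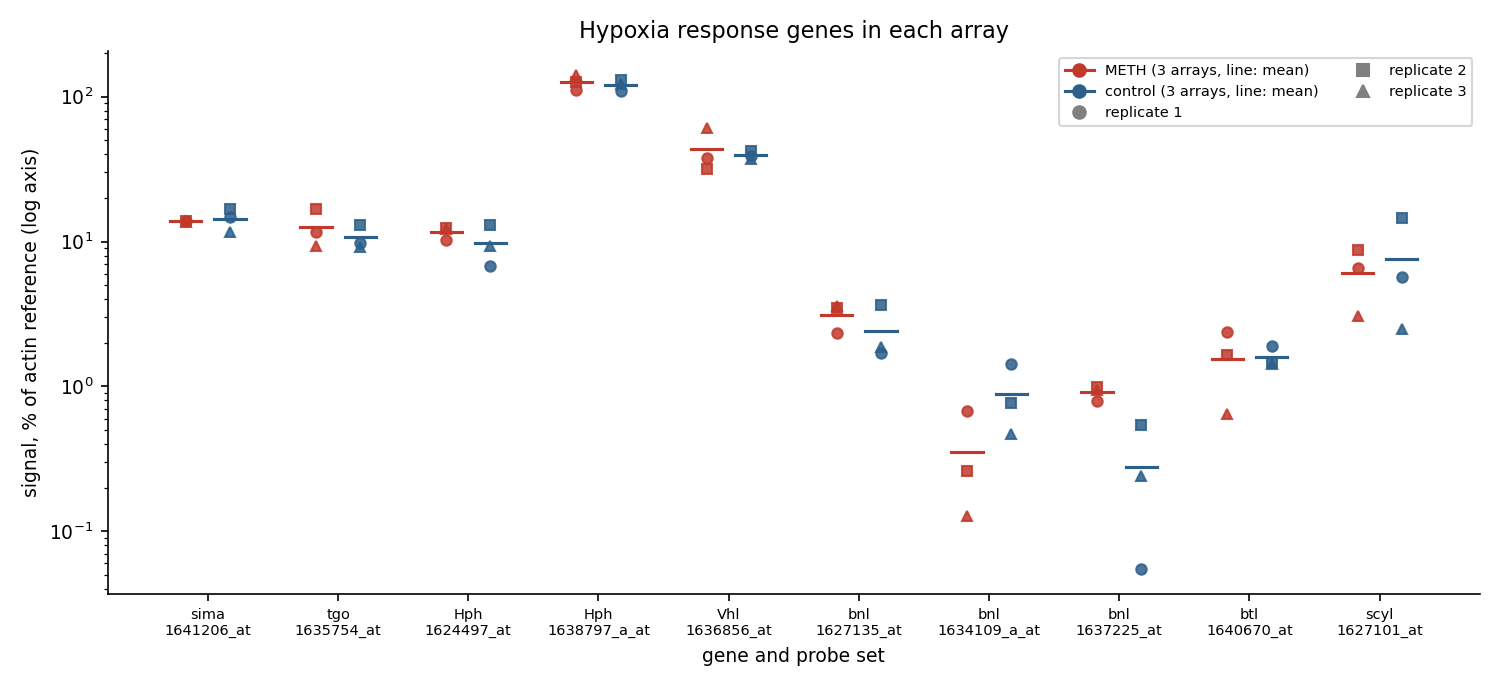
Signal of each of the 10 probe sets in the 6 arrays, as a percentage of the actin reference on a log axis, with METH left of control, symbols for replicate numbers and lines at the means. METH and control points overlap for 9 probe sets, and only bnl 1637225_at has all 3 METH points above the 3 control points.

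*sima* encodes the oxygen-regulated partner of the factor. Its probe set (1641206_at) read 13.9, 13.7 and 13.7% of actin in METH arrays, against 14.8, 16.7 and 11.6% in control arrays. All METH values lay inside the control range. The log2 difference was -0.04 ± 0.20 (SE, adjusted p = 0.932, limma), with a 95% confidence interval of -0.46 to 0.38, or 0.725-fold to 1.30-fold. These bounds hold for the actin reference: the difference was -0.42 (interval -0.87 to 0.04) with the signals as deposited and -0.23 (-0.61 to 0.15) after median centring.

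*tgo* encodes the constitutive partner, which is shared with other proteins of the same class. Its probe set (1635754_at) read 11.7, 16.6 and 9.27% of actin in METH arrays, against 9.74, 13.1 and 9.22% in control arrays. On both diets replicate 2 was the highest, and the groups overlapped. METH minus control came to 0.21 ± 0.25 (SE, adjusted p = 0.696, limma), with an interval of -0.33 to 0.74. With the signals as deposited it was -0.17.

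*Hph*, the oxygen-dependent enzyme that marks Sima, is covered by a pair of probe sets. The first, 1638797_a_at, whose suffix marks a set that matches several transcripts of 1 gene, read 111, 125 and 140% of actin in METH arrays, against 109, 130 and 122% in control arrays. These groups overlapped, and the log2 difference was 0.06 ± 0.16 (SE, adjusted p = 0.877, limma), with an interval of -0.29 to 0.42. The deposited signals of the same probe set were 923, 1090 and 980 in METH arrays, against 1325, 1197 and 1199 in control arrays, so that before scaling all METH arrays were below all control arrays. On that scale the difference was -0.32 (interval -0.56 to -0.07, adjusted p = 0.256, limma). As deposited, METH was below every control array for 1 of the 10 probe sets, against 13.6% of all probe sets, and above every control array for 1, against 2.61%. The difference was also negative after median centring (-0.13), 75th percentile centring (-0.17) and quantile normalization (-0.20).

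The other *Hph* probe set (1624497_at) read 10.3, 12.5 and 12.3% of actin in METH arrays, against 6.77, 13.1 and 9.33% in control arrays. Control replicate 2 exceeded all METH arrays, and the other two control arrays were below them. For this set METH minus control was 0.31 ± 0.25 on the log2 scale (SE, adjusted p = 0.567, limma).

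*Vhl* encodes the subunit that recognizes marked Sima. Its probe set (1636856_at) read 37.9, 31.6 and 60.9% of actin in METH arrays, against 38.7, 41.9 and 37.4% in control arrays. METH replicate 3 was the highest of the 6 arrays and METH replicate 2 the lowest, so that the control values lay between them. The mean was 43.5 ± 15.4% in METH arrays and 39.3 ± 2.32% in control arrays (SD, n = 3 each). The difference was 0.09 ± 0.22 (SE, adjusted p = 0.856, limma), and without METH replicate 3 it was -0.18.

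**Figure D2:**
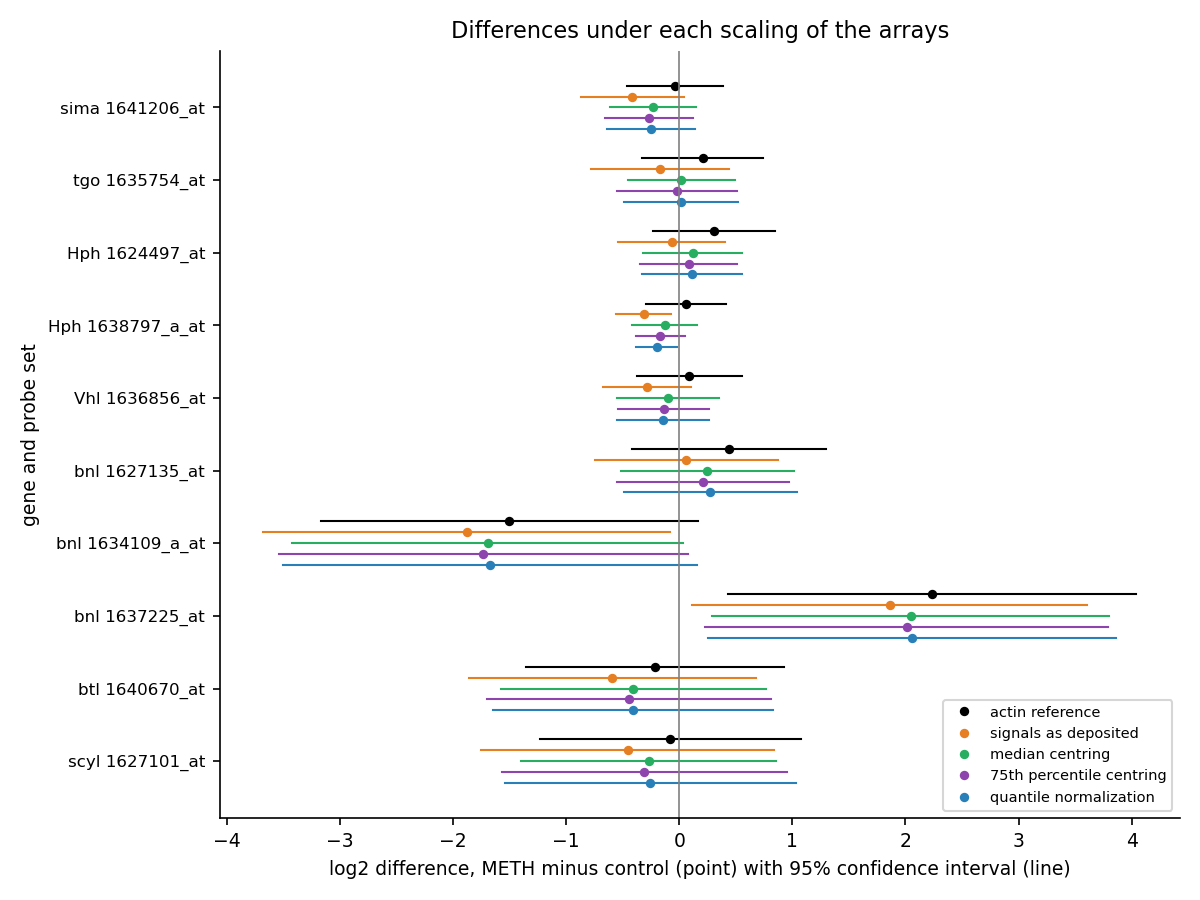
Log2 difference, METH minus control, of each probe set (points) with 95% confidence intervals (lines) under 5 ways of scaling the arrays. The points of Hph 1638797_a_at and Vhl lie at 0.06 and 0.09 with the actin reference and below 0 with the other scalings, whereas those of bnl 1637225_at stay above 0.

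*bnl* encodes Branchless, a fibroblast growth factor (FGF) that cells short of oxygen release to attract tracheal branches. It had 3 probe sets, which did not run the same way. The one with the highest signals, 1627135_at, read 2.32, 3.46 and 3.59% of actin in METH arrays, against 1.70, 3.63 and 1.87% in control arrays. The highest value was that of control replicate 2, so the groups overlapped. Its log2 difference was 0.44 ± 0.40 (SE, adjusted p = 0.606, limma), with an interval of -0.42 to 1.29, and 0.06 with the signals as deposited.

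The probe set 1637225_at had the smallest unadjusted p of the group. It read 0.793, 0.998 and 0.948% of actin in METH arrays, against 0.0550, 0.539 and 0.243% in control arrays. All METH arrays exceeded all control arrays. The log2 difference was 2.24 ± 0.84 (SE, unadjusted p = 0.0190, adjusted p = 0.369, limma), with an interval of 0.43 to 4.04, and it did not pass the threshold.

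The probe set 1634109_a_at ran the other way. It read 0.676, 0.262 and 0.128% of actin in METH arrays, against 1.43, 0.774 and 0.466% in control arrays. METH replicate 1 lay above control replicate 3, and the log2 difference was -1.50 ± 0.77 (SE, adjusted p = 0.446, limma), with an interval of -3.17 to 0.16.

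The signals behind 1637225_at and 1634109_a_at were low. Those of 1637225_at were 6.60, 8.67 and 6.64 in METH arrays, against 0.670, 4.97 and 2.39 in control arrays. The tag control probe sets, which match no fly transcript, reached 8.81, 18.6 and 12.5 in METH arrays, against 14.7, 12.3 and 15.5 in control arrays. The signal of 1637225_at exceeded the highest tag control on 0 of 6 arrays, that of 1634109_a_at on 1 of 6 and that of 1627135_at on 6 of 6.

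**Figure D3:**
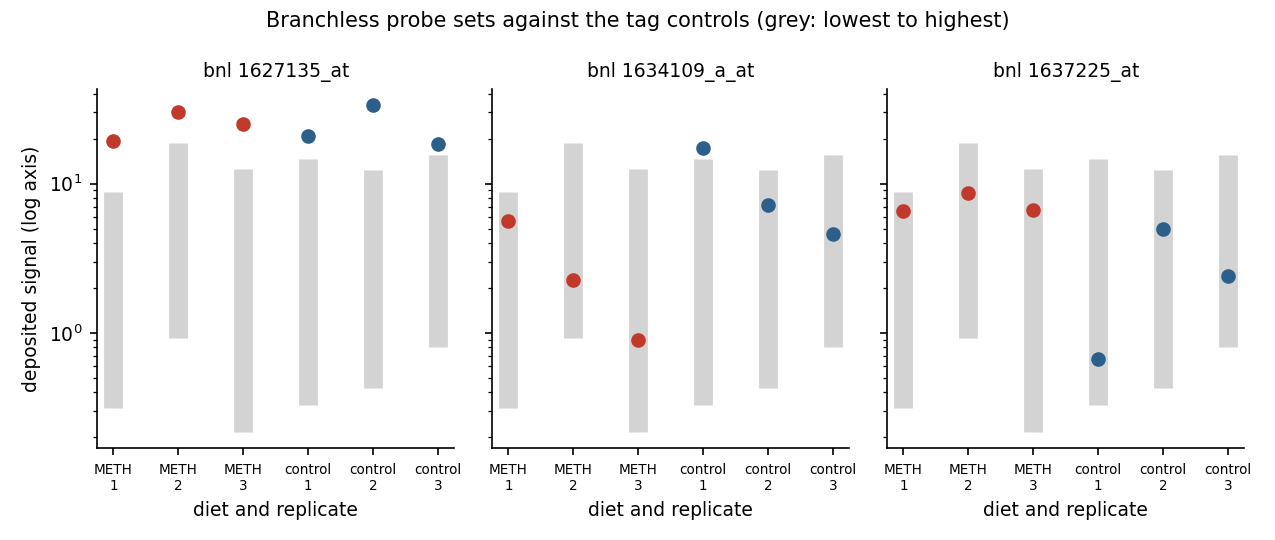
Deposited signal (log axis) of the 3 bnl probe sets in each array, METH arrays left of control arrays, with grey bars from the lowest to the highest tag control of that array. The points of 1627135_at lie above the bars on 6 of 6 arrays, and those of 1637225_at lie within them.

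The genes whose pattern over the 6 arrays was most like that of 1637225_at were *CG9389*, *CG15278* and *CG11663*. Their correlations with it were 0.997, 0.996 and 0.991 (Pearson's r on median-centred log2 signals), the highest among 8462 brighter probe sets paired with 1 gene. With 6 arrays and so many candidates these values are a description, and since 1637225_at did not exceed the tag controls they say nothing of *bnl* itself. *CG9389* read 116, 133 and 128% of actin in METH arrays, against 71.7, 117 and 94.2% in control arrays, with METH replicate 1 just below control replicate 2.

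*btl* encodes Breathless, the FGF receptor through which Branchless acts on tracheal cells. Its probe set (1640670_at) read 2.37, 1.64 and 0.642% of actin in METH arrays, against 1.91, 1.44 and 1.42% in control arrays. The METH values spanned the control values on both sides. A log2 difference of -0.21 ± 0.53 was found (SE, adjusted p = 0.860, limma), against 0.33 without METH replicate 3, and the signal exceeded the highest tag control on 3 of 6 arrays. RNA from whole flies holds little of any small organ, and fewer tracheal cells cannot be told apart from less RNA per cell.

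*scyl* encodes Scylla, which restrains growth by inhibiting TOR signalling under stress. Its probe set (1627101_at) read 6.54, 8.71 and 3.07% of actin in METH arrays, against 5.69, 14.6 and 2.48% in control arrays. Replicate 2 was the highest and replicate 3 the lowest on both diets. METH and control differed by -0.08 ± 0.53 on the log2 scale (SE, adjusted p = 0.950, limma), with an interval of -1.24 to 1.07, so that changes from 0.425-fold to 2.10-fold lie within it. Without control replicate 2 the difference was 0.57, and without METH replicate 3 it was 0.35. In limma with the replicate number as a block, the SE of the difference over all arrays was 0.24.

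The precision differed between the probe sets. Given its own SE, the smallest difference that would have passed the threshold in either direction ran from 0.73 for Hph 1638797_a_at to 3.73 for bnl 1637225_at on the log2 scale. For *sima* it was 0.88, for *tgo* 1.10, for *Vhl* 0.96, for bnl 1627135_at 1.77, for *btl* 2.36 and for *scyl* 2.39. These values come from the fit without a replicate block. With the replicate number as a block the SE was smaller for every probe set of the group. It was 0.17 against 0.25 for *tgo*, 0.24 against 0.53 for *scyl* and 0.79 against 0.84 for bnl 1637225_at.

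Genes that act with the group were taken as 6 lists, with each gene represented by its probe set of highest mean signal. Of the 56 genes measured, 0 were higher and 0 lower in METH at an adjusted p under 0.05 in limma, and at an unadjusted p under 0.05 METH was higher for 4 and lower for 0, where the array as a whole had 9.38% higher and 2.12% lower. By the methods' t-test, at either cutoff, METH was higher for 0 and lower for 0. Against the median of all probe sets (0.24), the list medians lay between 0.02 and 0.30.

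**Figure D4:**
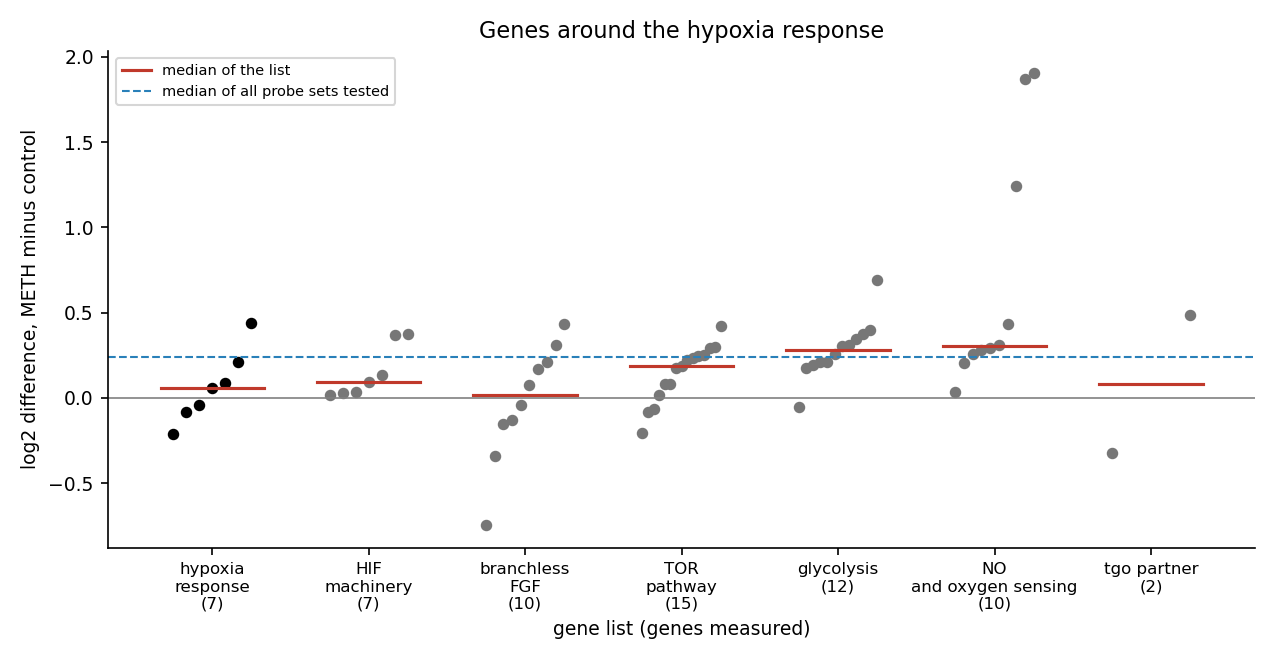
Log2 difference, METH minus control, of each measured gene (points) in the hypoxia response group and the 6 lists, with list medians (red) and the median of all probe sets at 0.24 (dashed). The highest points are 2 dim guanylyl cyclase genes at 1.90 and 1.87.

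The list of the factor's machinery held proteins that degrade, export or assist Sima. Of 12 genes 7 were measured, with a median of 0.09. *pont* and *rept* encode the ATPases Pontin and Reptin, which act together in chromatin complexes. *pont* read 45.4, 52.8 and 61.8% of actin in METH arrays, against 36.8, 45.0 and 41.3% in control arrays, and *rept* read 74.98, 75.2 and 106%, against 56.2, 67.6 and 73.6%. For both genes all METH arrays were above all control arrays, as for 15.7% of all probe sets. The log2 differences were 0.37 ± 0.17 for *pont* (SE, adjusted p = 0.432, limma) and 0.37 ± 0.18 for *rept* (adjusted p = 0.444), and with the signals as deposited they were -0.004 and -0.009. *Cul2*, the scaffold of the Vhl ubiquitin ligase, averaged 29.1 ± 5.54% in METH arrays and 26.7 ± 5.45% in control arrays (SD, n = 3 each), with an adjusted p of 0.760.

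Of 15 genes of the FGF route 10 were measured, with a median of 0.02, the lowest of the lists. *sgl* encodes the UDP-glucose dehydrogenase that supplies precursors of heparan sulphate, a co-factor of FGF receptors. It read 48.9, 66.3 and 59.1% of actin in METH arrays, against 80.7, 59.2 and 81.2% in control arrays. Control replicate 2 lay among the METH values, and the log2 difference was -0.34 ± 0.18 (SE, adjusted p = 0.451, limma). The difference was larger in size with the other scalings, from -0.53 after median centring to -0.71 with the signals as deposited (adjusted p = 0.138, limma). *sty*, the feedback inhibitor Sprouty, averaged 28.5 ± 1.69% in METH arrays and 24.97 ± 5.06% in control arrays (adjusted p = 0.596), and *pyr*, which encodes another FGF, averaged 2.78 ± 0.783% and 2.19 ± 0.952% (SD, n = 3 each, adjusted p = 0.650).

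Scylla acts on TOR, and 15 of 20 genes of that pathway were measured, with a median of 0.19. *Tsc1*, which with Gigas forms the complex through which TOR is inhibited, averaged 19.7 ± 1.65% in METH arrays and 16.7 ± 1.20% in control arrays (adjusted p = 0.537). *REPTOR-BP*, a partner of a transcription factor held back by TOR, averaged 113 ± 27.02% in METH arrays and 90.8 ± 6.36% in control arrays (adjusted p = 0.491). *eIF4E1*, the cap-binding protein of translation, averaged 207 ± 5.85% and 175 ± 26.1% (SD, n = 3 each, adjusted p = 0.511). The differences of these 3 genes, 0.23, 0.29 and 0.25, lay close to the median of all probe sets.

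Glycolytic enzymes are turned up by Sima in low oxygen. Their list also held genes of the pyruvate dehydrogenase step, of which *Pdk* was measured, and the gene *ERR*, which was measured too. Of these 16 genes 12 were measured, with a median of 0.28. *Hex-C*, a hexokinase, read 249, 291 and 370% of actin in METH arrays, against 180, 184 and 192% in control arrays. With this reference all METH arrays exceeded all control arrays, as for 15.7% of all probe sets. As deposited the groups overlapped, with METH replicate 1 (2072) below control replicate 1 (2195). The log2 difference of *Hex-C* was 0.69 ± 0.19 with the actin reference (SE, unadjusted p = 0.00281, adjusted p = 0.142, limma). It was positive under the other 4 scalings, from 0.32 with the signals as deposited to 0.50 after median centring. The adjusted p (limma) under these scalings ran from 0.0532 with quantile normalization to 0.373 with the signals as deposited. In limma with the replicate number as a block, a fit that called 5.50% of all probe sets higher and 1.39% lower, *Hex-C* passed the threshold (adjusted p = 0.0166). *Pgi*, phosphoglucose isomerase, read 580 ± 82.3% in METH arrays and 446 ± 46.2% in control arrays (adjusted p = 0.458), and *Eno*, enolase, 888 ± 97.9% and 679 ± 115% (SD, n = 3 each, adjusted p = 0.469). As deposited, the differences of *Pgi* and *Eno* were -0.002 and 0.02. With the actin reference 11 of the 12 genes had a positive difference, as had 74.5% of all probe sets, and the signals as deposited put every difference lower by the same amount.

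Flies also sense oxygen through guanylyl cyclases and nitric oxide, and 10 of 11 genes of this list were measured, with a median of 0.30. *glob1*, a globin, read 232, 245 and 328% of actin in METH arrays, against 161, 219 and 215% in control arrays. All METH arrays lay above all control arrays, as for 15.7% of all probe sets. The log2 difference was 0.43 ± 0.20 (SE, adjusted p = 0.435, limma), and 0.05 with the signals as deposited, where the groups overlapped. *Gyc88E* and *Gyc89Db* encode atypical cyclases that are active in low oxygen. *Gyc88E* had signals of 5.34, 9.45 and 12.2 in METH arrays, against 1.53, 6.46 and 2.60 in control arrays, and those of *Gyc89Db* were 2.32, 4.87 and 4.74, against 1.12, 1.62 and 1.32. Both lay below the highest tag control of their arrays, and the log2 differences were 1.90 ± 0.75 (adjusted p = 0.401) and 1.87 ± 0.79 (SE, adjusted p = 0.424, limma).

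Of 4 genes for other partners of Tango, 2 were measured. *dysf*, which encodes Dysfusion, a factor of tracheal fusion cells, averaged 2.36 ± 0.577% in METH arrays and 1.70 ± 0.510% in control arrays (adjusted p = 0.581). *ss*, which encodes Spineless, averaged 1.89 ± 0.889% and 2.16 ± 0.259% (SD, n = 3 each, adjusted p = 0.749).

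The arrays resembled each other closely, with Spearman correlations of 0.968 to 0.975 between arrays of the same diet and of 0.966 to 0.972 across the diets. The ratio of 3′ to 5′ actin signals, a measure of RNA integrity, was 1.53 to 1.93 in METH arrays and 1.46 to 1.61 in control arrays. Of 4 marker genes of the tracheae, which express *btl*, METH was higher for 0 and lower for 0 in limma, and their summed level was 95.8 to 115% of actin in METH arrays and 109 to 127% in control arrays. Of 5 midgut markers 3 were lower in METH, against 0.416% of all probe sets. Their sum was 1017 to 1321% in METH arrays and 1042 to 1507% in control arrays. Of 6 accessory gland markers 1 was lower, against the same share. The sum of 6 testis markers was 1961 to 2396% in METH arrays and 1313 to 1927% in control arrays. These ranges did not overlap, although 0 of the 6 passed the test. All METH arrays lay above all control arrays for 15.7% of all probe sets. The sum of 3 female markers did not overlap either, at 11.5 to 14.8% in METH arrays and 9.25 to 11.4% in control arrays. The sums of the flight muscle, fat body, and neuron and eye markers overlapped. None of these or of the female markers passed the test. The part of tissue composition in the values above was not tested.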

How the data were processed

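RNA was measured on Affymetrix Drosophila Genome 2.0 Arrays, 3 per diet. Images were quantified by the authors with GCOS 1.4 into 1 signal per probe set and array. These deposited intensities are on a linear scale; whether they were scaled to a target is not given in the sources used here, and no detection calls were used. Arrays were grouped by their labels. With R 4.3.3 and limma 3.58.1, log2 signals minus that of AFFX-Dros-ACTIN_M_r were compared (METH minus control, lmFit and eBayes with a trend, Benjamini-Hochberg, adjusted p under 0.05). The 183 AFFX probe sets were left out of the test. Symbols were updated through gene identifiers for 13544 probe sets; 13647 were paired with 1 gene, 402 with several and 4720 with none. The fit was tested on simulated data.

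The genes and lists were chosen with earlier results of these data known. Each probe set of the group was named, and from each list the genes past the threshold, otherwise the 3 of smallest p; like patterns are the 3 highest correlations. Alternatives were 4 other scalings, a filter at the 40th and a floor at the 20th percentile, no trend, the replicate number as a block, each array left out, the methods' t-test at a pair of cutoffs, averaging a gene's probe sets and other thresholds. Plots used Python 3.11.15 and matplotlib 3.10.9. The number of arrays limits the precision.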

Additional observations from a re-analysis of the deposited data

How the results depend on the processing

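The count of probe sets of the group past the threshold was 0 higher and 0 lower under every alternative run, and the lowest adjusted p over 14 alternatives was 0.0765 (bnl 1637225_at with the replicate block). The counts of the 6 lists also remained at 0, except that *Hex-C* passed with the replicate block, giving 1 glycolysis gene higher in METH (log2 difference 0.69, adjusted p = 0.0166, limma). Over all probe sets METH was higher for 1033 and lower for 260 with the replicate block, against 158 and 78 without it. The replicate numbers were not taken as pairs. Deviations of same-numbered arrays from their diet's mean correlated by 0.02, 0.04 and 0.06 over all probe sets, and by 0.31, 0.53 and 0.59 over the 9384 brighter probe sets, a subset chosen after seeing the data in which every array correlated best with its own number. METH was higher for 114 and lower for 381 probe sets with the signals as deposited, 131 and 169 with median centring, 147 and 211 with 75th percentile centring, and 161 and 264 with quantile normalization. Higher probe sets thus made up 66.9% of those past the threshold with the actin reference and 23.0 to 43.7% with the other scalings. The counts were 51 higher and 14 lower with low values floored, and 17 higher and 7 lower without the trend. The methods' t-test gave 173 higher and 48 lower at p at most 0.005 and, after Benjamini-Hochberg, 2 higher and 0 lower. With each array left out in turn, 103 to 143 were higher and 56 to 92 lower, and the lowest count of higher probe sets came without control replicate 3.

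Of the log2 differences of the 10 probe sets, 117 of 136 alternative values kept their sign and 19 turned. With the signals as deposited the values that turned were tgo -0.17, Hph 1624497_at -0.067, Hph 1638797_a_at -0.32 and Vhl -0.29. With median centring they were Hph 1638797_a_at -0.13 and Vhl -0.10, with 75th percentile centring tgo -0.019, Hph 1638797_a_at -0.17 and Vhl -0.14, and with quantile normalization Hph 1638797_a_at -0.20 and Vhl -0.15. With each array left out in turn, the differences ranged from -0.19 to 0.077 for sima, -0.017 to 0.40 for tgo, -0.022 to 0.15 for Hph 1638797_a_at, -0.18 to 0.29 for Vhl, -0.62 to 0.33 for btl and -0.71 to 0.57 for scyl. The filter on dim probe sets left out the bnl and btl probe sets. The cause was not tested. Low signals limit what can be said of 1634109_a_at, 1637225_at and btl.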
